A study of Rattus norvegicus with 38 samples.

Results

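The genes that set which fuel the heart burns were followed here in failing and healthy rat hearts, as 7 rows of the gene tables chosen by Ensembl ID out of 24057 genes, all 7 of which were found. They are *Ppargc1a* (ENSRNOG00000004473), *Cpt1b* (ENSRNOG00000010438), *Pdk4* (ENSRNOG00000009565), *Slc2a4* (ENSRNOG00000017226), *Slc2a1* (ENSRNOG00000007284), *Hk2* (ENSRNOG00000006116) and *Ldha* (ENSRNOG00000013009). RNA was sequenced from male Sprague-Dawley rats 10 weeks of age, in 38 libraries. The failing group came from hearts of animals whose ascending aorta had been narrowed as pups, a model in which the left ventricle hypertrophies, and the healthy group carries the same protocol text, so the labels leave unsaid what its animals underwent. Libraries were made from the sinoatrial node, the pacemaker of the heart, with its inferior part (iSAN) and its superior part (sSAN) taken apart, and from right atrium (RA) and left atrium (LA), with 4 failing and 4 healthy libraries of each. Left ventricle (LV) gave 4 failing and 2 healthy libraries. Every title carries a 4-digit code that returns in several regions; 4 codes are failing, 4 are healthy and 0 are both, so anything tied to a code cannot be told apart from health state. Libraries are numbered within each group in accession order, and a number marks the same code in every failing group and in every healthy group of nodes and atria; healthy LV libraries 1 and 2 share the codes of healthy libraries 3 and 4 of the other regions. The labels do not state that a code is an animal, and p-values therefore measure the spread between these libraries.

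A working adult heart draws most of its energy from fatty acids and the rest largely from glucose and lactate. Fatty acids enter the mitochondrion through the carnitine shuttle, while glucose enters the cell through transporters of the GLUT family, is phosphorylated by hexokinase and ends as pyruvate, which is either oxidised in the mitochondrion or turned into lactate. A move away from fatty acid oxidation is a textbook feature of the hypertrophied and failing heart. *Ppargc1a* encodes PGC-1alpha, a coactivator of nuclear receptors that drives mitochondrial and fatty acid oxidation genes. *Cpt1b* encodes the muscle form of carnitine palmitoyltransferase, the gate of the carnitine shuttle, and *Pdk4* encodes a kinase that switches off pyruvate dehydrogenase and so spares glucose when fat is burned. *Slc2a4* encodes GLUT4, the insulin-responsive transporter, *Slc2a1* encodes GLUT1, the transporter of basal uptake, *Hk2* encodes the hexokinase of muscle and *Ldha* encodes the lactate dehydrogenase subunit that favours lactate production.

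Promoter sequences are shown for *Ppargc1a* and *Pdk4*, which were lower in failing hearts, and for *Slc2a1* and *Ldha*, which were higher in the failing left atrium. They are RefSeq promoter windows of build GRCr8, from 250 bases before to 50 bases after the gene start, and 5 of the 7 genes matched an entry by symbol. The motifs searched on both strands were TGACGTCA, which is the cAMP response element, CACGTG, which is the E-box, ACGTG, which holds the core of the hypoxia response element and lies within the E-box, AGGTCA, which is a nuclear receptor half-site, and TATAAA, the TATA box. Capitals mark a match. *Ppargc1a* lies at chr14:63634058-63634357 on the plus strand, *Pdk4* at chr4:34568280-34568579 on the minus strand, *Slc2a1* at chr5:138002272-138002571 on the plus strand and *Ldha* at chr1:106507842-106508141 on the plus strand.
Ppargc1a: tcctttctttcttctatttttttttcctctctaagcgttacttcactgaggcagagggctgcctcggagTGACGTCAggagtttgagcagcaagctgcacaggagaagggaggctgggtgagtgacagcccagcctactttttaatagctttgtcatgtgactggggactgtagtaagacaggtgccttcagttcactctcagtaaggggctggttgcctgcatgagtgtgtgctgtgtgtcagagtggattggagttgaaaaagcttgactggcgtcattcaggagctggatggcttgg
Pdk4: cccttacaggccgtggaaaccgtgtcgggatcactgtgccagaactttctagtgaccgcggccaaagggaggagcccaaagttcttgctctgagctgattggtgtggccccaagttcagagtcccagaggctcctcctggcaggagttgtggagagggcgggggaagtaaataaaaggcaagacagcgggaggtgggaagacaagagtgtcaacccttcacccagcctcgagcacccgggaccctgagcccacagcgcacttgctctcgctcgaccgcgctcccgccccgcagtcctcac
Slc2a1: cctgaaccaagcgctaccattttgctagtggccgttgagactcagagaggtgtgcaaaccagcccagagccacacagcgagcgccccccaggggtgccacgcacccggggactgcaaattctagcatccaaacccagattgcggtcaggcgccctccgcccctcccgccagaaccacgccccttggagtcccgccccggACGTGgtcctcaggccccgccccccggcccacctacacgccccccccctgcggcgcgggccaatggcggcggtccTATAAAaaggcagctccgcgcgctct
Ldha: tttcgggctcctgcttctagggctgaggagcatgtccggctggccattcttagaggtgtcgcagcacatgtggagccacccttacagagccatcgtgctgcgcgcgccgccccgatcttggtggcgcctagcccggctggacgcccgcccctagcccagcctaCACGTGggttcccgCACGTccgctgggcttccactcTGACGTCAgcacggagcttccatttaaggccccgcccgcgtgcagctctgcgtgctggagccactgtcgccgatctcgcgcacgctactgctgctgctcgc
The *Ppargc1a* window held TGACGTCA at -181, counted from the start to the first base of the motif, and the *Ldha* window held it at -51; 1.83% of 33365 rat promoter windows of that length hold it. The *Ldha* window also held CACGTG at -87 and a further ACGTG at -73, and the *Slc2a1* window held ACGTG at -51 and TATAAA at 25 bases past the start. CACGTG is present in 6.43%, ACGTG in 19.3%, AGGTCA in 16.2% and TATAAA in 14.2% of all windows. None of these motifs was found in the *Pdk4* or *Hk2* window, which says nothing of the factors that may act there.

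Library totals ran from 17406473 to 27355777 estimated counts, and the lowest estimated count of any of the 7 genes in any library was 28.0. The 10 most abundant genes took 13.5% to 39.3% of the counts outside the failing left ventricle. Within the failing left ventricle they took 33.4% in library 1, 46.6% in library 2, 61.3% in library 3 and 28.1% in library 4. Libraries 2 and 3 thus lay above all others, library 3 furthest. Tests on that group are also given without library 3, and those fits still hold library 2. TPM, a measure of transcript abundance that corrects for transcript length and library size, is used for levels, and log2 differences with their SE and adjusted p come from the quasi-likelihood test of edgeR on estimated counts scaled with TMM, which sets the bulk of genes to no change. A level in TPM and a TMM difference can therefore disagree in size or sign where a few genes fill more of some libraries. In bulk tissue, fewer cells of a type and less RNA per cell cannot be told apart.

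*Ppargc1a*, *Cpt1b*, *Pdk4* and *Slc2a4* were lower in failing hearts and passed the test in the iSAN and both atria. In the iSAN 5 of the 7 genes were lower and 0 were higher at an adjusted p under 0.05, where 19.0% of all genes tested were called lower and 19.5% higher. In the RA 4 genes were lower and 0 higher, against 23.0% and 24.5% of all genes. In the LA 4 were lower and 2 higher, against 23.9% and 24.3%. In the sSAN 1 was lower and 0 higher, against 4.56% and 8.92%. In the LV 0 were called, as were 0.0% of all genes, with 2 of the 7 and 1510 of 13670 genes at an unadjusted p under 0.05; DESeq2 called 2 of the 7 there, among 342 of 14007 genes. The median log2 difference of the 7 genes was -1.05 in iSAN, -0.64 in sSAN, -0.68 in RA, -1.09 in LA and -0.57 in LV, while that of all genes tested lay between -0.006 and 0.027. On TPM without TMM scaling the median of all genes shifted to -0.19 in RA, -0.14 in LA, -0.26 in LV and 0.12 in sSAN, and the split of calls became 1662 higher and 5121 lower in RA in place of 3434 and 3223, and 1828 higher and 4688 lower in LA in place of 3461 and 3392. In the iSAN that split was 1930 and 953 in place of 2803 and 2730, and in the sSAN 1085 and 95 in place of 1280 and 654.

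**Figure D1:**
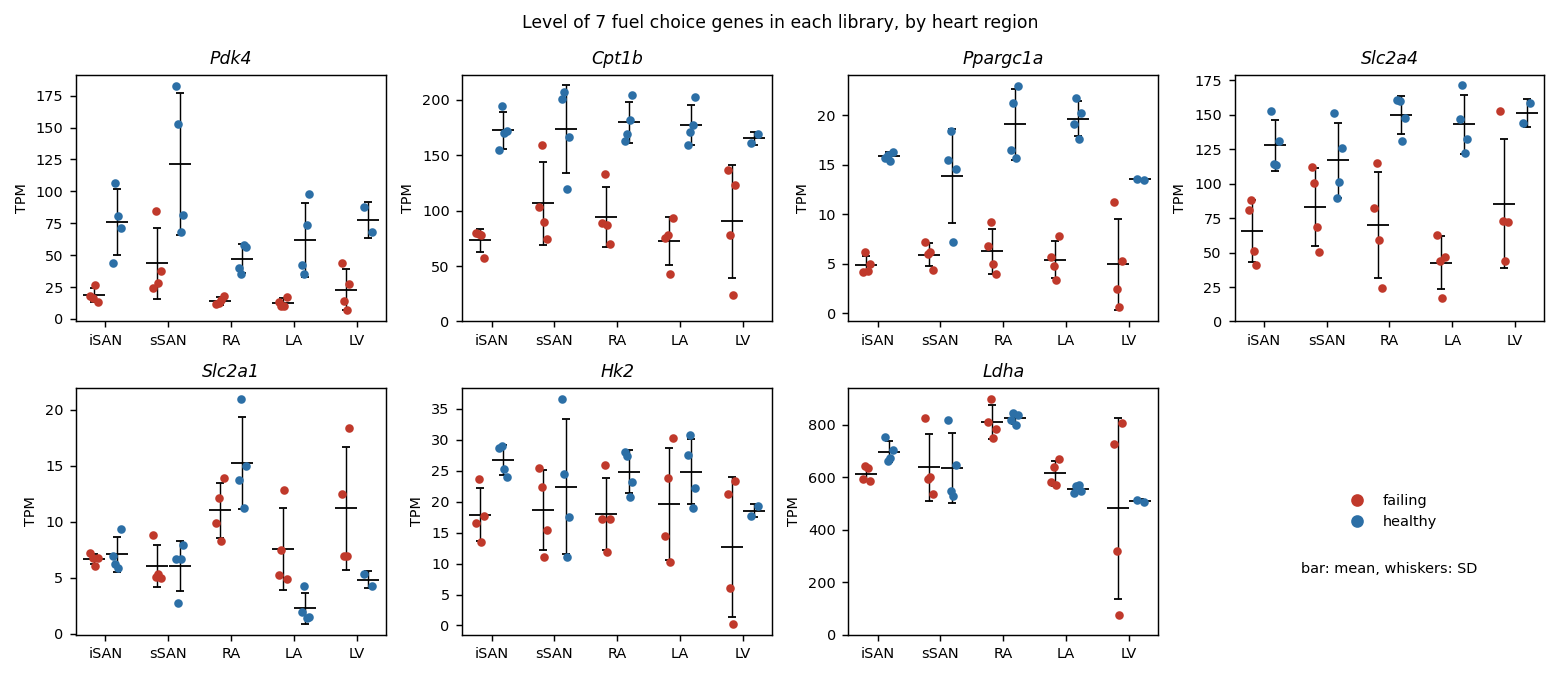
Level of each gene in TPM (vertical axes) in every library, by region, with failing libraries in red left of healthy libraries in blue; the bar is the group mean and the whiskers the SD. *Ppargc1a* and *Cpt1b* separate the health states in most regions, whereas *Ldha* overlaps in most and *Slc2a1* sits lowest in the healthy left atrium, at 1.42 to 4.27 TPM.

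*Ppargc1a* was the gene of the 7 that fell in 4 regions. In the iSAN it measured 4.16, 6.18, 4.28 and 4.95 TPM in failing libraries, against 15.7, 16.0, 15.4 and 16.3 TPM in healthy libraries. The groups were far from overlapping, and the healthy libraries lay within 1 TPM of each other. The log2 difference was -1.83 (SE 0.12, adjusted p 0.000314). In the RA the values were 6.77, 9.25, 5.03 and 4.00 TPM in failing libraries, against 16.5, 21.3, 15.7 and 23.0 TPM in healthy libraries. In the LA they were 5.66, 4.82, 3.33 and 7.84 TPM in failing libraries, against 19.1, 21.8, 17.6 and 20.2 TPM in healthy libraries. Neither atrium had an overlap between the groups. Log2 differences were -1.36 in RA (SE 0.19, adjusted p 0.00062) and -1.65 in LA (SE 0.23, adjusted p 0.000624).

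The sSAN was more scattered for *Ppargc1a*, with 7.15, 5.99, 6.17 and 4.36 TPM in failing libraries, against 15.5, 18.4, 7.21 and 14.5 TPM in healthy libraries. Healthy library 3 was almost level with the highest failing library, library 1, although the ranges did not cross. The gene still passed, at a log2 difference of -1.43 (SE 0.30, adjusted p 0.0217). The adjusted p was 0.0512 without failing library 3, 0.057 without failing library 4 and 0.0548 without healthy library 1. In the LV the level was 11.3, 2.49, 0.67 and 5.29 TPM in failing libraries, against 13.6 and 13.5 TPM in healthy libraries. All 4 failing libraries lay below both healthy ones, library 3 lowest, and the difference of -1.36 did not pass (SE 0.60, adjusted p 0.461; -1.07 without failing library 3, adjusted p 0.292). Ranked by mean TPM, the 5 healthy groups came first, from 19.7 ± 1.76 in LA (SD, n = 4) to 13.5 ± 0.0605 in LV (SD, n = 2), and the 5 failing groups followed, from 6.26 ± 2.30 in RA to 4.89 ± 0.927 in iSAN (SD, n = 4 each). Only the step from healthy LV to failing RA was free of overlap between neighbours. Groups further apart did overlap across that step: healthy sSAN library 3, at 7.21 TPM, lay below failing RA library 2 (9.25 TPM) and failing LV library 1 (11.3 TPM).

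*Cpt1b* kept the same order of health states. In the iSAN it had 79.4, 78.7, 77.7 and 57.6 TPM in failing libraries, against 154, 195, 170 and 172 TPM in healthy libraries. Every healthy library lay well above every failing one, and the failing library 4 was the lowest of all. By edgeR the log2 difference was -1.33 (SE 0.21, adjusted p 0.00233). In the RA the values were 89.2, 133, 86.6 and 69.6 TPM in failing libraries, against 163, 169, 182 and 205 TPM in healthy libraries. In the LA they were 75.2, 77.9, 42.5 and 93.7 TPM in failing libraries, against 159, 171, 178 and 202 TPM in healthy libraries. The atrial groups were also separate. The log2 difference was -0.68 in RA (SE 0.15, adjusted p 0.00456) and -1.09 in LA (SE 0.22, adjusted p 0.00334).

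In the sSAN *Cpt1b* measured 104, 160, 89.5 and 74.1 TPM in failing libraries, against 201, 207, 120 and 166 TPM in healthy libraries. Failing library 2 exceeded healthy library 3, so the groups overlapped. The log2 difference of -0.87 missed the threshold (SE 0.31, adjusted p 0.086). Without failing library 2 it was -1.20 (adjusted p 0.0243), the only fit to pass of the 8 that left out 1 library. In the LV it measured 136, 78.0, 24.1 and 123 TPM in failing libraries, against 161 and 169 TPM in healthy libraries, which did not overlap. The difference of -0.66 did not pass (SE 0.33, adjusted p 0.475; -0.48 without failing library 3, adjusted p 0.352). Among healthy groups the mean spanned only 165 to 180 TPM over the 5 regions, and among failing groups 72.3 to 107 TPM.

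*Pdk4* had the steepest fall of the 7 in the iSAN, with 18.3, 16.1, 26.7 and 13.5 TPM in failing libraries, against 44.1, 107, 80.9 and 71.2 TPM in healthy libraries. The groups did not overlap, although the healthy libraries were widely spread. This was a log2 difference of -2.13 (SE 0.37, adjusted p 0.00315). In the LA it had 13.1, 10.1, 10.2 and 17.4 TPM in failing libraries, against 41.9, 35.2, 73.6 and 97.8 TPM in healthy libraries. In the RA it had 11.3, 12.5, 15.1 and 18.01 TPM in failing libraries, against 40.0, 35.0, 57.6 and 56.2 TPM in healthy libraries. In both atria healthy libraries 3 and 4 stood above libraries 1 and 2, and all stood above the failing ones. By edgeR the log2 difference was -2.09 in LA (SE 0.36, adjusted p 0.00171) and -1.44 in RA (SE 0.25, adjusted p 0.00144).

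The sSAN had the highest mean *Pdk4* level in each health state, but its range overlapped that of the next group in both. The edgeR test of iSAN against sSAN was not passed in healthy (adjusted p 0.485) or failing hearts (adjusted p 0.628). Levels in the sSAN were 24.2, 84.5, 28.4 and 37.7 TPM in failing libraries, against 183, 153, 68.2 and 81.4 TPM in healthy libraries. Failing library 2 lay above healthy libraries 3 and 4, and healthy libraries 1 and 2 lay far above the rest. The log2 difference of -1.62 did not pass (SE 0.50, adjusted p 0.0608). Without failing library 2 it was -2.23 (adjusted p 0.0187), the only fit to pass of the 8 that left out 1 library. In the LV the level was 43.6, 13.9, 6.91 and 27.7 TPM in failing libraries, against 87.7 and 67.8 TPM in healthy libraries. Those groups were separate, and the difference of -1.56 did not pass (SE 0.37, adjusted p 0.349; -1.42 without failing library 3, adjusted p 0.157); DESeq2 gave an adjusted p of 0.0163.

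**Figure D2:**
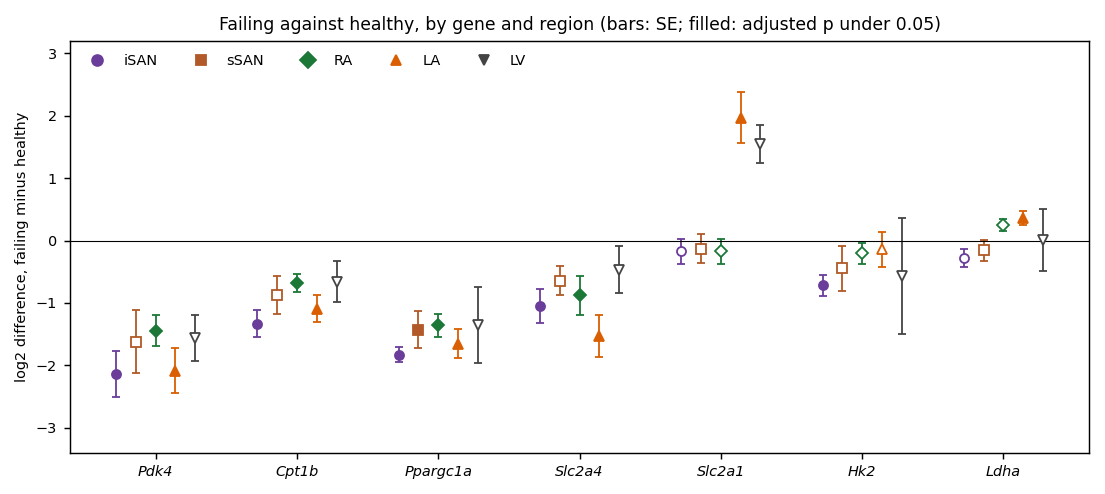
Log2 difference of failing minus healthy libraries (vertical axis) for each gene, with a symbol for each region and bars of 1 SE; filled symbols have an adjusted p under 0.05 by edgeR. *Pdk4*, *Cpt1b*, *Ppargc1a* and *Slc2a4* lie below 0 in all 5 regions, with *Slc2a1* at 1.97 in LA and 1.55 in LV but between -0.17 and -0.13 in the other regions.

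*Slc2a4* fell in the iSAN and both atria. In the LA it measured 62.8, 43.8, 16.7 and 47.0 TPM in failing libraries, against 147, 171, 122 and 132 TPM in healthy libraries. The lowest healthy library was well above the highest failing one, and failing library 3 was lowest. The log2 difference was -1.53 (SE 0.34, adjusted p 0.00524). In the iSAN it measured 81.1, 88.4, 51.5 and 41.3 TPM in failing libraries, against 153, 114, 114 and 131 TPM in healthy libraries. In the RA it measured 82.3, 115, 58.8 and 24.0 TPM in failing libraries, against 161, 160, 131 and 148 TPM in healthy libraries. Both pairs of groups were separate, and the failing RA libraries differed widely among themselves. Log2 differences were -1.05 in iSAN (SE 0.28, adjusted p 0.0163) and -0.88 in RA (SE 0.31, adjusted p 0.042). The RA call was lost with no filter on low counts (adjusted p 0.0952) and in 6 of 8 fits without 1 library, with adjusted p between 0.0566 and 0.0977; it held without failing library 2 and without failing library 4.

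In the sSAN *Slc2a4* ran from 50.6 to 112 TPM in failing libraries, against 89.3 to 151 TPM in healthy libraries. The groups overlapped, and the log2 difference of -0.64 did not pass (SE 0.23, adjusted p 0.0874). Without failing library 2 it was -0.81 (adjusted p 0.0482), the only fit to pass of the 8 that left out 1 library. In the LV it had 153, 72.7, 43.8 and 72.5 TPM in failing libraries, against 144 and 159 TPM in healthy libraries. Failing library 1 lay between the healthy ones and the other failing libraries lay below, and the difference did not pass (-0.47, SE 0.38, adjusted p 0.596; -0.50 without failing library 3, adjusted p 0.524).

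*Slc2a1* rose in the failing LA. In the LA it measured 5.25, 7.50, 12.8 and 4.91 TPM in failing libraries, against 1.92, 4.27, 1.42 and 1.49 TPM in healthy libraries. Every failing library was above every healthy one, with failing library 3 highest and healthy library 2 nearest to the failing range. By edgeR the log2 difference was 1.97 (SE 0.41, adjusted p 0.00385). In the LV the values were 12.5, 6.94, 6.94 and 18.4 TPM in failing libraries, against 5.39 and 4.30 TPM in healthy libraries. The groups were again separate in gene TPM, failing libraries 1 and 4 being the highest, but the difference of 1.55 did not pass (SE 0.30, adjusted p 0.289). Without failing library 3 it was 1.39 (adjusted p 0.0779), and DESeq2 on all libraries gave an adjusted p of 0.00145. On the gene's main transcript alone the LV groups overlapped, with 4.34 TPM in failing library 2 and 0.117 TPM in failing library 3.

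In the nodes and the RA no difference of *Slc2a1* passed. The iSAN libraries ran from 6.05 to 7.20 TPM in failing hearts, against 5.89 to 9.40 TPM in healthy hearts (log2 difference -0.17, SE 0.20, adjusted p 0.522). The sSAN libraries ran from 4.95 to 8.82 TPM in failing hearts, against 2.78 to 7.92 TPM in healthy hearts (-0.13, SE 0.23, adjusted p 0.724). The RA libraries ran from 8.28 to 13.9 TPM in failing hearts, against 11.3 to 21.0 TPM in healthy hearts (-0.17, SE 0.20, adjusted p 0.491). All these ranges overlapped.

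Whether the effect of failure itself differed between regions was tested as an interaction in 6 pairs of regions. *Slc2a1* was the single gene of the 7 to pass, for the iSAN minus the LA, at -2.18 (SE 0.48, adjusted p 0.0446), where 0.932% of all genes passed. That call was lost with DESeq2-type size factors (adjusted p 0.0504), with no filter on low counts (0.061), on TPM with limma (0.0806 and 0.0666), and without any 1 of 12 of the 16 libraries; the call held without failing iSAN library 1, failing LA library 1, failing LA library 4 or healthy LA library 2. For the LA minus the RA the *Slc2a1* difference was 2.14 but missed the threshold (SE 0.47, adjusted p 0.084), where 0.171% of all genes passed and 0 of the 7 did. None of the 7 passed for iSAN minus sSAN (0.0% of all genes, 598 at an unadjusted p under 0.05), iSAN minus RA (0.0203%), sSAN minus RA (0.0%, 1666 at an unadjusted p under 0.05) or LV minus LA (0.114%); DESeq2 also called none of the 7 in those 4, where it called 0, 99, 135 and 175 genes in all. Without failing LV library 3 the LV minus LA test still called 0 of the 7, with adjusted p from 0.595 to 0.994. The larger number of *Ppargc1a*, *Cpt1b*, *Pdk4* and *Slc2a4* calls in the iSAN than in the sSAN was thus not shown to be a different effect: the iSAN minus sSAN differences of these genes ran from -0.50 to -0.40, with adjusted p from 0.96 to 0.962.

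**Figure D3:**
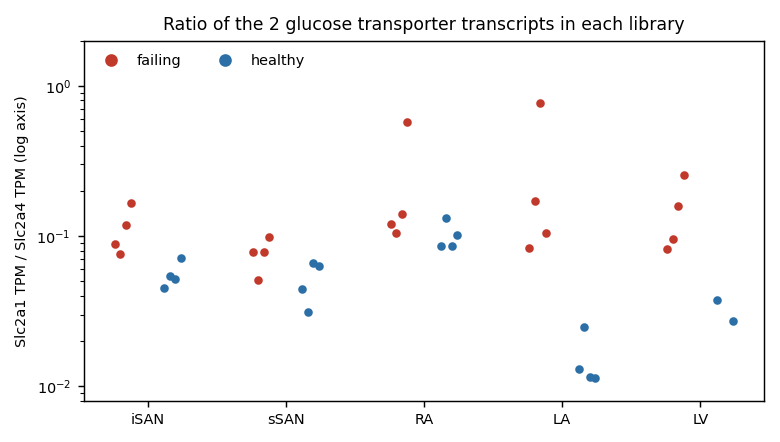
Ratio of *Slc2a1* to *Slc2a4* TPM in each library (log vertical axis) by region, with failing libraries in red left of healthy libraries in blue. The left atrium shows the widest separation, at 0.0835 to 0.77 in failing libraries and 0.0113 to 0.0249 in healthy libraries.

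Set against each other in the same library, *Slc2a1* and *Slc2a4* gave a ratio that was separate between health states in iSAN, LA and LV. In the LA the ratio ran from 0.0835 to 0.77, with a median of 0.138, in failing libraries, against 0.0113 to 0.0249, with a median of 0.0123, in healthy libraries. In the LV it ran from 0.0818 to 0.254 in failing libraries, with library 3 at 0.158, against 0.0271 and 0.0374 in healthy libraries. In failing LV library 3 the main transcripts carried only 1.68% of *Slc2a1* and 0.0% of *Slc2a4* TPM, and in library 2 62.6% and 27.6%. The LV ratios of these libraries thus rest largely on other transcripts. In the iSAN the ratio ran from 0.0763 to 0.165 in failing libraries, against 0.0453 to 0.0718 in healthy libraries. Even the highest of these ratios left GLUT4 transcripts above GLUT1 transcripts. In the sSAN the ratio ran from 0.0508 to 0.0979 in failing libraries and from 0.0312 to 0.0658 in healthy libraries. In the RA it ran from 0.105 to 0.578 in failing libraries and from 0.0856 to 0.131 in healthy libraries, and in both of these regions the ranges overlapped. The ratio is a description with no test.

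*Hk2* passed in the iSAN, with 16.5, 23.8, 13.5 and 17.8 TPM in failing libraries, against 28.7, 29.0, 25.3 and 24.1 TPM in healthy libraries. Failing library 2 came close to the lowest healthy one but stayed below it. The log2 difference was -0.72 (SE 0.17, adjusted p 0.00977), and the call was lost in a fit of all 38 libraries (adjusted p 0.248). In the other regions the failing and healthy libraries overlapped: 11.1 to 25.5 against 11.0 to 36.6 TPM in sSAN, 11.9 to 25.9 against 20.7 to 28.0 TPM in RA, and 10.2 to 30.3 against 18.9 to 30.8 TPM in LA. The log2 differences there were -0.45 in sSAN (SE 0.36, adjusted p 0.414), -0.21 in RA (SE 0.17, adjusted p 0.32) and -0.14 in LA (SE 0.28, adjusted p 0.703). In the LV *Hk2* measured 21.3, 6.05, 0.31 and 23.3 TPM in failing libraries, against 17.8 and 19.3 TPM in healthy libraries. Failing libraries 1 and 4 were above the healthy ones, and failing libraries 2 and 3 were far below. The difference was -0.57 (SE 0.93, adjusted p 0.78), or -0.18 without failing library 3 (adjusted p 0.812).

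*Ldha* was the most abundant of the 7, and passed the test of edgeR in the LA alone. In the LA it measured 581, 640, 571 and 671 TPM in failing libraries, against 541, 565, 569 and 547 TPM in healthy libraries. The lowest failing library was only just above the highest healthy one. This was a log2 difference of 0.36 (SE 0.11, adjusted p 0.0252), and the call was lost on TPM with limma (adjusted p 0.273 and 0.275), in the fit of all 38 libraries (0.147), and without failing library 4, healthy library 1, healthy library 2 or healthy library 4 (0.0523 to 0.0769). In the RA *Ldha* ran from 749 to 900 TPM in failing libraries, against 800 to 843 TPM in healthy libraries, and the TMM-scaled difference of 0.25 missed the threshold (SE 0.10, adjusted p 0.0582); DESeq2 called it (0.24, adjusted p 0.00226), as did limma after TMM rescaling (adjusted p 0.0426), while on unscaled log2(TPM + 1) the difference was -0.027 and not called (adjusted p 0.826). In the iSAN it ran from 586 to 643 TPM in failing libraries, against 661 to 753 TPM in healthy libraries, which did not overlap. The difference of -0.29 did not pass (SE 0.15, adjusted p 0.149). Without failing library 1 it was -0.40 (adjusted p 0.0369), the only fit to pass of the 8 that left out 1 library. In the sSAN it ran from 535 to 825 TPM in failing libraries, against 528 to 820 TPM in healthy libraries (log2 difference -0.16, SE 0.17, adjusted p 0.542). In the LV it measured 726, 320, 74.3 and 806 TPM in failing libraries, against 515 and 506.6 TPM in healthy libraries. Failing 3, the library with 61.3% of its counts in 10 genes, was the lowest for *Ldha* of all 38 libraries, and the LV difference was 0.01 (SE 0.50, adjusted p 0.996), or 0.28 without it (adjusted p 0.626).

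The regions were next compared within each health state. Among healthy hearts *Slc2a1* was highest in the RA at 15.2 ± 4.12 TPM and lowest in the LA at 2.27 ± 1.35 TPM (SD, n = 4 each). For the LA against the RA it measured 1.92, 4.27, 1.42 and 1.49 TPM in LA libraries, against 13.8, 21.0, 11.3 and 14.98 TPM in RA libraries, which were wide apart. By edgeR the log2 difference was -2.71 (SE 0.34, adjusted p 0.0022). *Ldha* was lower as well, at 541 to 569 TPM in LA libraries against 800 to 843 TPM in RA libraries (log2 difference -0.54, SE 0.06, adjusted p 9.41e-05). These were 2 of 7 lower and 0 higher, where 4.47% of all genes were called lower and 4.67% higher. With the code as a replicate block these 2 calls held, among 1339 genes lower and 1353 higher of 14024. The levels of *Ppargc1a*, *Cpt1b*, *Slc2a4*, *Pdk4* and *Hk2* gave no call between the healthy atria, with log2 differences from -0.03 to 0.44.

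In the healthy nodes *Slc2a1* was also lower than in the RA. It ran from 5.89 to 9.40 TPM in iSAN libraries against 11.3 to 21.0 TPM in RA libraries (log2 difference -1.06, SE 0.18, adjusted p 0.00449), the single call of 7, where 6.89% of all genes were lower and 10.7% higher. It ran from 2.78 to 7.92 TPM in sSAN libraries against the same RA libraries (log2 difference -0.95, SE 0.23, adjusted p 0.0164), and the adjusted p was 0.0506 with the code as a replicate block and 0.0509 without healthy RA library 2. *Pdk4* was higher in the sSAN, at 68.2 to 183 TPM against 35.0 to 57.6 TPM in the RA (log2 difference 1.80, SE 0.36, adjusted p 0.00904). These were 1 of 7 lower and 1 higher, where 9.03% of all genes were lower and 14.1% higher. Between the healthy iSAN and the healthy sSAN 0 of 7 passed by edgeR, where 0.00698% of all genes were called higher and 0.0% lower. Of the 7 only *Pdk4* had an unadjusted p under 0.05 there, as did 1463 of 14326 genes. DESeq2 called 0 of the 7 and 125 genes in all.

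The healthy LV was compared with the healthy LA. By edgeR, with TMM scaling, *Slc2a1* (log2 difference 1.87, SE 0.39, adjusted p 0.00702), *Slc2a4* (0.86, SE 0.12, adjusted p 0.000131), *Cpt1b* (0.67, SE 0.12, adjusted p 0.00113) and *Ldha* (0.65, SE 0.09, adjusted p 0.00015) were higher. These were 4 of 7 higher and 0 lower, where 22.5% of all genes were called higher and 21.0% lower. The TPM levels showed something else: *Cpt1b* had 161 and 169 TPM in LV libraries against 159 to 202 TPM in LA libraries, and *Ldha* had 515 and 506.6 TPM in LV libraries against 541 to 569 TPM in LA libraries. On TPM without TMM scaling the median of all genes was -0.57, the log2 differences of *Cpt1b* and *Ldha* turned negative, at -0.10 and -0.12, and that of *Slc2a4* shrank to 0.09 (adjusted p 0.53), so that these 3 calls were lost. *Ppargc1a*, at 0.23 and not called by edgeR (adjusted p 0.0803), passed there as lower, at -0.51 (adjusted p 0.00145). *Slc2a1*, at 5.39 and 4.30 TPM in LV libraries against 1.42 to 4.27 TPM in LA libraries, was called higher on both scales, but at 0.91 on unscaled log2(TPM + 1) (adjusted p 0.0259) and 1.19 on log2(TPM + 0.1) (adjusted p 0.03).

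Among failing hearts *Slc2a1* remained lower in the nodes than in the RA. It ran from 6.05 to 7.20 TPM in iSAN libraries against 8.28 to 13.9 TPM in RA libraries (log2 difference -1.07, SE 0.22, adjusted p 0.0112). *Ldha*, at 586 to 643 TPM in iSAN libraries against 749 to 900 TPM in RA libraries, was lower too (-0.76, SE 0.16, adjusted p 0.0121), as was *Ppargc1a*, whose ranges of 4.16 to 6.18 and 4.00 to 9.25 TPM overlapped (-0.71, SE 0.19, adjusted p 0.0315). These were 3 of 7 lower and 0 higher, where 7.37% of all genes were lower and 11.6% higher. The *Ppargc1a* call was lost on TPM with limma (-0.26 and -0.30), in the fit of all 38 libraries and without any 1 of 6 libraries, and the *Ldha* call was lost on TPM with limma (-0.40 in both, adjusted p 0.069 and 0.0687). With the code as a replicate block *Cpt1b* passed as well (-0.71, adjusted p 0.0368). For the sSAN against the RA *Slc2a1* ran from 4.95 to 8.82 TPM against 8.28 to 13.9 TPM (log2 difference -0.95, SE 0.21, adjusted p 0.0247), 1 of 7 lower and 0 higher, where 2.17% of all genes were lower and 6.11% higher. That call was lost without failing sSAN library 2, 3 or 4, with adjusted p of 0.0541 to 0.0681, and on log2(TPM + 1) with limma (0.055). *Pdk4*, at 24.2 to 84.5 TPM in sSAN libraries against 11.3 to 18.01 TPM in RA libraries, did not overlap and missed the threshold (1.58, SE 0.44, adjusted p 0.0581; with the code as a replicate block 1.38, adjusted p 0.0492).

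None of the 7 passed between the failing LA and the failing RA by edgeR, where 0.127% of all genes were called higher and 0.184% lower. There 1 of the 7 and 1331 of 14134 genes had an unadjusted p under 0.05, and DESeq2 called 1 of the 7 among 395 genes. None passed between the failing iSAN and the failing sSAN, where 0.0% of 14368 genes did; 3 of the 7 and 1130 genes had an unadjusted p under 0.05, and DESeq2 called 0 of the 7 and 44 genes in all. The failing LV against the failing LA gave 3 of 7 higher and 0 lower, where 5.86% of all genes were higher and 4.91% lower: *Slc2a4* (log2 difference 1.89, SE 0.44, adjusted p 0.0285), *Pdk4* (1.57, SE 0.32, adjusted p 0.0175) and *Slc2a1* (1.44, SE 0.33, adjusted p 0.0261). Their TPM ranges overlapped, at 43.8 to 153 TPM in LV libraries against 16.7 to 62.8 TPM in LA libraries for *Slc2a4*, 6.91 to 43.6 against 10.1 to 17.4 TPM for *Pdk4*, and 6.94 to 18.4 against 4.91 to 12.8 TPM for *Slc2a1*. On TPM without TMM scaling, where the median of all genes was -0.70, 0 of the 7 passed. Without failing LV library 3 the 3 calls held and *Cpt1b* was added (1.23, adjusted p 0.0242). Without failing LA library 2 none of the 7 passed (adjusted p of the 3 genes 0.0611 to 0.0915). Other single libraries mattered too: of 8 fits that left out 1 library, *Slc2a4* passed in 4, *Slc2a1* in 5 and *Pdk4* in 6. On unscaled TPM the split of calls over all genes was 704 higher and 10143 lower for healthy LV against LA, 132 and 2528 for failing LV against LA, 771 and 4886 for healthy sSAN against RA, 1022 and 391 for healthy iSAN against RA, 2261 and 169 for failing iSAN against RA and 694 and 134 for failing sSAN against RA.

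**Figure D4:**
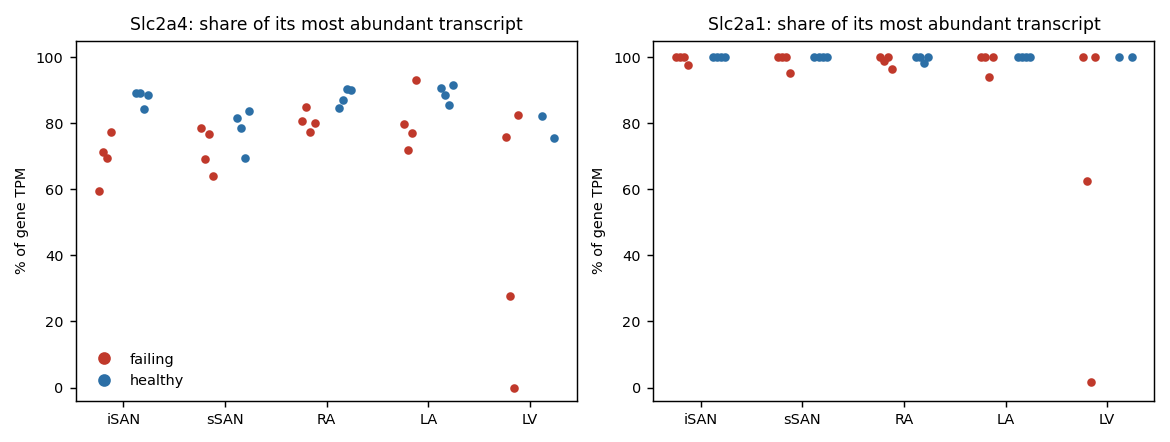
Share of the gene's TPM carried by its most abundant transcript (vertical axes, percent) for *Slc2a4* on the left and *Slc2a1* on the right, in every library by region, with failing libraries in red left of healthy libraries in blue. Failing left ventricle libraries 2 and 3 lie far below all others for both genes.

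The deposited transcript table allowed a look below the gene level. A gene's transcripts were recognised where their TPM added up to the gene's TPM in all 38 libraries within 1e-06, which succeeded for 5 of the 7 genes. *Pdk4* and *Hk2* had 2 transcripts, the main one at 99.9% of the TPM summed over libraries in each, *Cpt1b* had 1, and *Slc2a4* and *Slc2a1* had 3. Shares between transcripts of a gene are estimates, because reads from shared exons are divided by the quantifier. The main *Slc2a4* transcript, ENSRNOT00000023256, carried 59.5%, 71.2%, 69.4% and 77.4% in failing iSAN libraries, against 89.1%, 89.2%, 84.4% and 88.7% in healthy iSAN libraries. These groups did not overlap. The difference in means was -18.5 percentage points. A two-sided exact permutation test, added after the shares were seen, gave p = 0.0286, the smallest p that 4 against 4 allows. Groups of 4 that do not overlap always give this p, so it only restates the separation. Adjustment over 5 regions, for this gene alone, gave 0.143. The differences were -6.2 in sSAN, -7.2 in RA, -8.6 in LA and -32.3 in LV, all with overlap and with exact permutation p from 0.0571 to 0.667. The LV test could not go below 0.133, and without failing LV library 3 that difference was -16.8, where no exact permutation p below 0.2 is possible. In the failing LV the share was 75.9% in library 1, 27.6% in library 2, 0.0% in library 3 and 82.5% in library 4, against 82.2% and 75.5% in the healthy LV. A second transcript, ENSRNOT00000113573, took 71.1% in failing library 2 and 98.6% in failing library 3.

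The *Slc2a1* transcripts divided the failing LV in the same way. The main transcript, ENSRNOT00000064452, made up all of the gene's TPM in failing libraries 1 and 4, 62.6% in failing library 2 and 1.68% in failing library 3, against all of it in both healthy LV libraries. In TPM it measured 12.5, 4.34, 0.117 and 18.4 in failing LV libraries 1, 2, 3 and 4, against 5.39 and 4.30 in the healthy ones. Library 3 was thus level with library 2 in gene TPM, at 6.94, but had almost none of the transcript that the other libraries carried, and ENSRNOT00000083700 made up 83.7% of its gene level. *Hk2* parted in failing LV library 3 as well: its main transcript, ENSRNOT00000008813, was listed at 0 there and ENSRNOT00000109070 made up all of the 0.308 TPM, whereas the main transcript made up all of the gene in failing LV libraries 1, 2 and 4 and at least 99.4% in the healthy LV. Failing LV libraries 2 and 3 are the 2 libraries with the highest share of counts in 10 genes; the part of that share in the transcript values was not tested.

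Likeness between the genes was taken over the 38 libraries. Pearson's r of log2(TPM + 1) was 0.92 for *Ppargc1a* and *Cpt1b*, 0.84 for *Pdk4* and *Cpt1b* and 0.83 for *Cpt1b* and *Slc2a4*, and the libraries share codes, regions and health states. Taken as deviations from each group's mean, r was 0.85, 0.71 and 0.66 for these pairs, and 0.52 for *Pdk4* and *Ppargc1a*. Without failing LV library 3 these 4 values were 0.735, 0.61, 0.664 and 0.33. All r use TPM without TMM scaling, and r between pairs of genes in general is not given. *Pdk4* and *Slc2a4*, with r of 0.65 over all libraries, had 0.16 within groups and 0.0071 without failing LV library 3. Within groups *Hk2* was as close to *Cpt1b* (0.86) and *Ppargc1a* (0.85) as these were to each other, or 0.68 and 0.73 without failing LV library 3. *Ldha* had 0.81 to *Cpt1b* and 0.79 to *Ppargc1a* within groups, or 0.49 and 0.64 without failing LV library 3. Over all libraries *Hk2* and *Ldha* gave 0.86, or 0.56 without failing LV library 3. *Slc2a1* had r of -0.34 to *Pdk4*, -0.17 to *Cpt1b* and -0.18 to *Ppargc1a*, and 0.30 to *Ldha* (0.60 without failing LV library 3). Among 12528 other genes with a mean of at least 1 TPM, the profile most like *Cpt1b* was that of ENSRNOG00000000658 (r = 0.971) and the profile most like *Ppargc1a* that of ENSRNOG00000020689 (r = 0.969), neither of which is named in the tables used here. The best match had r = 0.941 for *Hk2*, 0.93 for *Slc2a4*, 0.928 for *Ldha* and 0.918 for *Pdk4*, but 0.696 for *Slc2a1*.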

How the data were processed

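Per the submitters' processing notes, Trimmomatic 0.39 and kallisto 0.48.0 were used; of the build, the annotation and the step from transcripts to genes, nothing is stated in the labels. The authors deposited estimated counts per gene, which are not whole numbers, and TPM per gene and per transcript. Over the 13474 genes above 0 in every library, the deposited estimated counts were a gene term times a library term times TPM, so they already carry a scaling for transcript length. Every column matched a sample by its title.

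Estimated counts were rounded and tested by robust quasi-likelihood in edgeR 4.0.16 (R 4.3.3): filterByExpr (count minimum 10, total minimum 15), TMM scaling, and Benjamini-Hochberg adjustment over all genes tested, with a threshold of 0.05. Each comparison was fitted on its own groups. SEs derive from the test statistic. The step was tested on simulated data. Alternatives were DESeq2-type size factors, no filter, DESeq2 1.42.0, limma 3.58.1 on log2(TPM + 1) and log2(TPM + 0.1), 1 joint fit over the 38 libraries, a block for the code, and each library left out; limma after TMM rescaling and the permutation tests of *Slc2a4* transcript shares, with and without failing LV library 3, were added after seeing the data.

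The 7 genes and the gene lists were chosen with earlier results of these data known. All 7 are named in every comparison, and for each the gene with the most similar profile was looked up. Tables carry Ensembl IDs only, the reference table matched 0 of them, and gene names of the 7 come from the selection itself; the pathway lists and cell type markers could not be applied, so neither tissue identity nor cell makeup was checked. Codes were taken to pair libraries where, with at least 3 pairs, every correlation of same-code deviations was over 0.1: this held for 6 of 10 region comparisons, with correlations from 0.159 to 0.719.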

Additional observations from a re-analysis of the deposited data

Results flagged for a closer look

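In 63 groups of 4 libraries, a library was set apart where its gap to the nearest other, divided by the group's range, was above Dixon's critical value, which chance alone gives in about 1 group in 20. This met 2 groups. *Cpt1b* in failing iSAN library 4 stood at 57.6 TPM, below the other 3 failing iSAN libraries (gap over range 0.922). *Slc2a1* in failing sSAN library 1 stood at 8.82 TPM, above the other 3 failing sSAN libraries (gap over range 0.894). Among 42 tests of whether the effect of failure differed between regions, *Slc2a1* passed for iSAN minus LA, at -2.18 on the log2 scale (SE 0.48, adjusted p 0.0446). That call held in only 8 of 24 alternative fits, and 0.932% of all genes passed by edgeR. *Slc2a1* measured 6.05 to 7.20 TPM in failing iSAN against 5.89 to 9.40 TPM in healthy iSAN. In the LA it measured 4.91 to 12.8 TPM in failing libraries against 1.42 to 4.27 TPM in healthy libraries.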

How the results depend on the processing

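The 147 member results, 33 of them called, gave 2611 values under the alternatives. Of these, 2490 kept their side of the threshold, 72 lost the call, 43 gained it and 6 turned round. Within the 2490, values called in both fits kept their direction, while 166 changed sign and were called in neither fit. The 6 turned with unscaled TPM in healthy LV against healthy LA: *Cpt1b* -0.098 and -0.099, *Ppargc1a* -0.505 and -0.532 and *Ldha* -0.121 and -0.122 with pseudocounts of 1 and 0.1; of these *Ppargc1a* passed as lower (adjusted p 0.00145 and 0.00128). There the median of all genes was -0.57 and -0.75; with TMM rescaling, added after seeing the data, that median was -0.02.

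The count of all genes called is given in brackets beside each count of members. Members called in failing against healthy were 2 with DESeq2 (342 genes) and 3 in the fit of all 38 libraries (3009) in LV (0 members and 0 genes as reported), and 4 (3244) and 3 (2689) in sSAN (1, 1934). Among healthy regions they were 2 with DESeq2 (3339) for iSAN against RA (1, 2489), 1 with the replicate block (3467) for sSAN against RA (2, 3269), 1 in the fit of all libraries (225) for LA against RA (2, 1282), and 2 with limma at either pseudocount (10847 and 11012), of which *Slc2a1* is among those reported and *Ppargc1a* is not, and 1 in the fit of all libraries (3398) for LV against LA (4, 6253). Among failing regions they were 1 with limma (2430 and 2596) for iSAN against RA (3, 2696), 3 with DESeq2 (2289), 2 with the replicate block (2838), 2 with limma at 0.1 (926) and 2 in the fit of all libraries (1666) for sSAN against RA (1, 1179), 1 with DESeq2 (395) for LA against RA (0, 44), and 0 with limma (2660 and 1481) for LV against LA (3, 1490). For the interactions they were 1 with DESeq2 (186) and 1 in the fit of all libraries (10) for LA minus RA (0, 25), and 2 with DESeq2 (527) but 0 with size factors (140), no filter (119) or limma (104 and 136) for iSAN minus LA (1, 139). The cause of these changes was not tested.

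Leaving out 1 library at a time gave 5 to 6 members called in iSAN (4297 to 5850 genes), 0 to 4 in sSAN (368 to 1987), 3 to 4 in RA (5271 to 6946), 5 to 6 in LA (5697 to 7017) and 0 to 0 in LV (0 to 12). Among healthy regions it gave 1 to 2 for iSAN against RA (1563 to 3149), 1 to 2 for sSAN against RA (1937 to 3629), 2 to 2 for LA against RA (956 to 1103) and 4 to 5 for LV against LA (4354 to 6170). Among failing regions it gave 2 to 4 for iSAN against RA (1512 to 3519), 0 to 2 for sSAN against RA (666 to 1208) and 0 to 4 for LV against LA (602 to 2107), and for the interactions 0 to 1 for iSAN minus RA (2 to 158), 0 to 1 for LA minus RA (13 to 101) and 0 to 2 for iSAN minus LA (43 to 420). Where the codes pair the libraries, the replicate block changed no other member call than those given with the region comparisons. Where they do not, the block called 6 in place of 4 members (5518 in place of 6253 genes) for healthy LV against LA, with *Hk2* (0.58, adjusted p 9.77e-05) and *Pdk4* (0.59, adjusted p 0.00143) added, and *Cpt1b* for failing LV against LA (1.08, adjusted p 0.0337), and moved no other call. At depth, the least precise values were those of *Hk2* and *Ppargc1a* in failing LV library 3, with 28.0 and 39.7 estimated counts. The 4 codes of healthy iSAN and sSAN, failing LA and RA and failing LV and LA did not all correlate above 0.1 (lowest -0.0742, -0.15 and 0.0233), and healthy LV and LA share 2 codes.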
